A study of Mus musculus with 4 samples.

Results

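Semaphorins and netrins are secreted or membrane-bound guidance cues, and plexins, neuropilins and UNC5 proteins are their receptors. The genes described here are the 7 named Sema3c, Sema3d, Sema3g, Plxnd1, Plxna2, Unc5b and Ntn1, of 55405 genes in the count matrices, and all 7 were found there by symbol. They were followed across the cell types of the embryonic mouse heart ventricle and between 2 Gata4 genotypes. The set was chosen by earlier results of these data, namely levels by cell type and the genotype contrast in endothelial cells, so those values are given as a description, with no p-value for the members.

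Both genotypes carried the Rosa26mTmG reporter, which switches from a red membrane protein (dsRed) to membrane EGFP where Cre has acted, and Cdh5(Pac)-CreER, a tamoxifen-inducible Cre under the promoter of the endothelial cadherin Cdh5. The group Gata4_het (Gata4fl/+;Rosa26mTmG/+;Cdh5(Pac)-CreER+) had 1 floxed Gata4 allele and the group Gata4_KO (Gata4fl/fl;Rosa26mTmG/+;Cdh5(Pac)-CreER+) had both alleles floxed. GATA4 is a zinc-finger transcription factor of the heart. Cre was induced at E9.5 (embryonic day 9.5) and ventricles were taken at E12.5. Each group had 2 single-cell libraries, here het 1, het 2, KO 1 and KO 2, and from the labels a single embryo cannot be told from a pool of embryos, so p-values measure only the spread between these libraries. The control libraries also carried Cre and the reporter, and no library without Cre was analysed here.

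In development, secreted class 3 semaphorins bind neuropilins or, for some members, plexins directly, and plexins carry the signal into the cell through an intracellular domain that acts on Ras-family GTPases. Netrin-1 binds receptors of the DCC and UNC5 families, and UNC5B is known as an endothelial netrin receptor that also binds ROBO4 and FLRT proteins. In the heart, Sema3c and Plxna2 are known for the septation of the outflow tract, Plxnd1 for the patterning of vessels, and Sema3d for the venous connections.

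The members lie at separate places in the mouse genome (GRCm38, annotation GENCODE M21, 1-based). Sema3d (chr5:12383385-12588948, plus strand) and Sema3c (chr5:17574281-17730268, plus strand) share a chromosome. Sema3g is at chr14:31217860-31230352 on the plus strand and Plxna2 at chr1:194618218-194816869 on the plus strand. Plxnd1 (chr6:115954811-115995005), Unc5b (chr10:60762593-60831581) and Ntn1 (chr11:68209364-68400823) are on the minus strand.

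The library het 1 stood apart from the others. It had 22599 cells after filtering at a median of 4161 UMIs (unique molecular identifiers, which count captured RNA molecules), against 6809 to 13771 cells at medians of 7129 to 14048 in the other libraries, and 63.0% of its cells fell into clusters that the naming rule left unnamed, against 19.0% to 28.3%. Total counts were 137890971 to 190207638 UMIs a library, and any 2 libraries shared 23 to 103 cell barcodes. Only some of the results that het 1 moves are given both with and without it. The 6 classes compared between genotypes carried their own markers: cardiomyocyte markers made up 7.63% to 8.30% of UMIs in cardiomyocyte-like cells, endothelial markers 0.607% to 0.739% in endothelial-like cells, mesenchymal markers 0.965% to 1.10% in mesenchymal-like cells, epicardial markers 0.470% to 0.505% in epicardial-like cells, macrophage markers 1.21% to 1.33% in macrophage-like cells, and erythroid markers 58.7% to 76.6% in erythroid-like cells. Mesenchymal markers were also 0.941% to 1.45% of UMIs in epicardial-like cells, so their sum does not tell epicardial-like from mesenchymal-like cells. Epicardial markers were 0.0123% to 0.0156% in mesenchymal-like cells.

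Gata4 itself went against the simple reading of the labels. Its level in endothelial-like cells was 85.7 and 82.9 CPM (counts per 1000000 UMIs, the unit of all levels below) in the het libraries, and 159 and 160 in the KO libraries. It was also higher in the libraries labelled KO in the endocardial-like part, and not in cardiomyocyte-like cells (62.1 to 68.4 CPM over the 4 libraries). The libraries count 3′ ends, and the floxed exons are not named in the labels, so this level does not check the deletion. The matrices also hold added sequences named FloxGata4 and FloxGata4_ctrl, whose content the labels do not state and whose values are not given here. KO below means the libraries labelled KO.

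The promoters of Unc5b and Sema3g are shown because the results in endothelial cells turn on these genes, and that of Plxna2 because it is the other member with a match. Capitals mark the GATA-type motif letters searched for on either strand, which were AGATAA with its variant AGATAG as well as TGATAA with its variant TGATAG; each sequence is the 250 bases before the RefSeq start, 5′ to 3′ on the gene's own strand (RefSeq, GRCm38.p6).
Unc5b: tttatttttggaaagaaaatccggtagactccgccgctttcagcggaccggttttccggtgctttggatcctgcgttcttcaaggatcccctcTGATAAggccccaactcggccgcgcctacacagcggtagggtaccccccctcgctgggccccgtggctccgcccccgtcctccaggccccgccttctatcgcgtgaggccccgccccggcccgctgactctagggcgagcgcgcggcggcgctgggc
Plxna2: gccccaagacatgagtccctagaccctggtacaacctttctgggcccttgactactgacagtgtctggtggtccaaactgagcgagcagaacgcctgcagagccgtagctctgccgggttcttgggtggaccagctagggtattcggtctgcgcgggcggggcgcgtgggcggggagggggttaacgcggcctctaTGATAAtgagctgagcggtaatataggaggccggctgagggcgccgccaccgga
Sema3g: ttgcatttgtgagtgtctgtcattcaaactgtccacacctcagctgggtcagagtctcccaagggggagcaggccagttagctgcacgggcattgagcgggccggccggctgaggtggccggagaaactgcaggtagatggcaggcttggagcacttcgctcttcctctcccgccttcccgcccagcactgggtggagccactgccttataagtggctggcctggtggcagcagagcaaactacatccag

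The Unc5b window is chr10:60831582-60831831 (minus strand), with its match 157 bases before the start. The Plxna2 window is chr1:194619579-194619828 (plus strand, inside the GENCODE gene), with its match 54 bases before the start. The Sema3g window is chr14:31217623-31217872 (plus strand) and holds none of these letters. Of the 6 members in the table, 2 had a match, beside 26.5% of 32851 such windows of 27025 genes. A match is a description of the letters and not of binding. No promoter window was available for Ntn1, so it was not searched.

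Among the ligands, Sema3d and Sema3c were led by the epicardium, the outer cell layer of the heart. Sema3d was counted in epicardial-like cells at 376 CPM in het 1, 319 in het 2, 405 in KO 1 and 393 in KO 2, with a mean of 374 ± 38.3 (SD, n = 4 libraries). Mesenchymal-like cells came second, at 65.1 to 71.9 CPM, and the ranges of the 2 classes did not overlap. In cardiomyocyte-, endothelial-, macrophage- and erythroid-like cells the gene was at most at 5.34 CPM, and the ranges of neighbours in that order overlapped.

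Sema3c had the same leading class at a mean of 86.0 ± 7.24 CPM (SD, n = 4), with 90.5 in het 1, 76.4 in het 2, 92.6 in KO 1 and 84.7 in KO 2. It was next in cardiomyocyte-like cells, at 9.96 to 12.3 CPM, and then in mesenchymal-like cells, at 4.62 to 8.48 CPM. These 3 ranges did not overlap. Endothelial-like cells were at 0.564 to 1.85 CPM and overlapped macrophage-like cells.

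Sema3g, a class 3 semaphorin known from endothelium, had 2 leading classes. Its mean over the libraries was 6.77 ± 2.35 CPM (SD, n = 4) in endothelial-like cells and 3.71 ± 2.02 in epicardial-like cells, and the ranges of these 2 classes overlapped. Mesenchymal-like cells followed at 0.136 to 0.583 CPM.

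Ntn1, which encodes the secreted cue netrin-1, was led by cardiomyocyte-like cells. Its values were 38.0 and 27.9 CPM in the het libraries and 55.4 and 37.4 in the KO libraries, a mean of 39.7 ± 11.5 (SD, n = 4). Endothelial-like cells came next at 2.51 to 4.52 CPM, without overlap, and the other classes below them overlapped their neighbours.

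The receptors divided the tissue differently. Plxnd1, the receptor of Sema3e, was led by endothelial-like cells at 462 CPM in het 1, 377 in het 2, 531 in KO 1 and 419 in KO 2. Macrophage-like cells came next at 75.1 to 121 CPM, and then mesenchymal-like cells at 12.6 to 23.9 CPM. These 3 classes did not overlap, while mesenchymal-like cells overlapped cardiomyocyte-like cells below them. Plxna2, a receptor that pairs with neuropilins, was flatter: endothelial-like cells at 35.04 to 48.2 CPM, and mesenchymal- and cardiomyocyte-like cells overlapping at 14.7 to 24.3 CPM.

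Unc5b was led by mesenchymal-like cells rather than by endothelium. It was at 147 CPM in het 1, 124 in het 2, 149 in KO 1 and 148 in KO 2, a mean of 142 ± 11.97 (SD, n = 4). Epicardial-like cells followed at 59.3 to 69.9 CPM. Endothelial-like cells (22.6 to 51.2) and cardiomyocyte-like cells (21.4 to 28.1) overlapped.

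**Figure D1:**
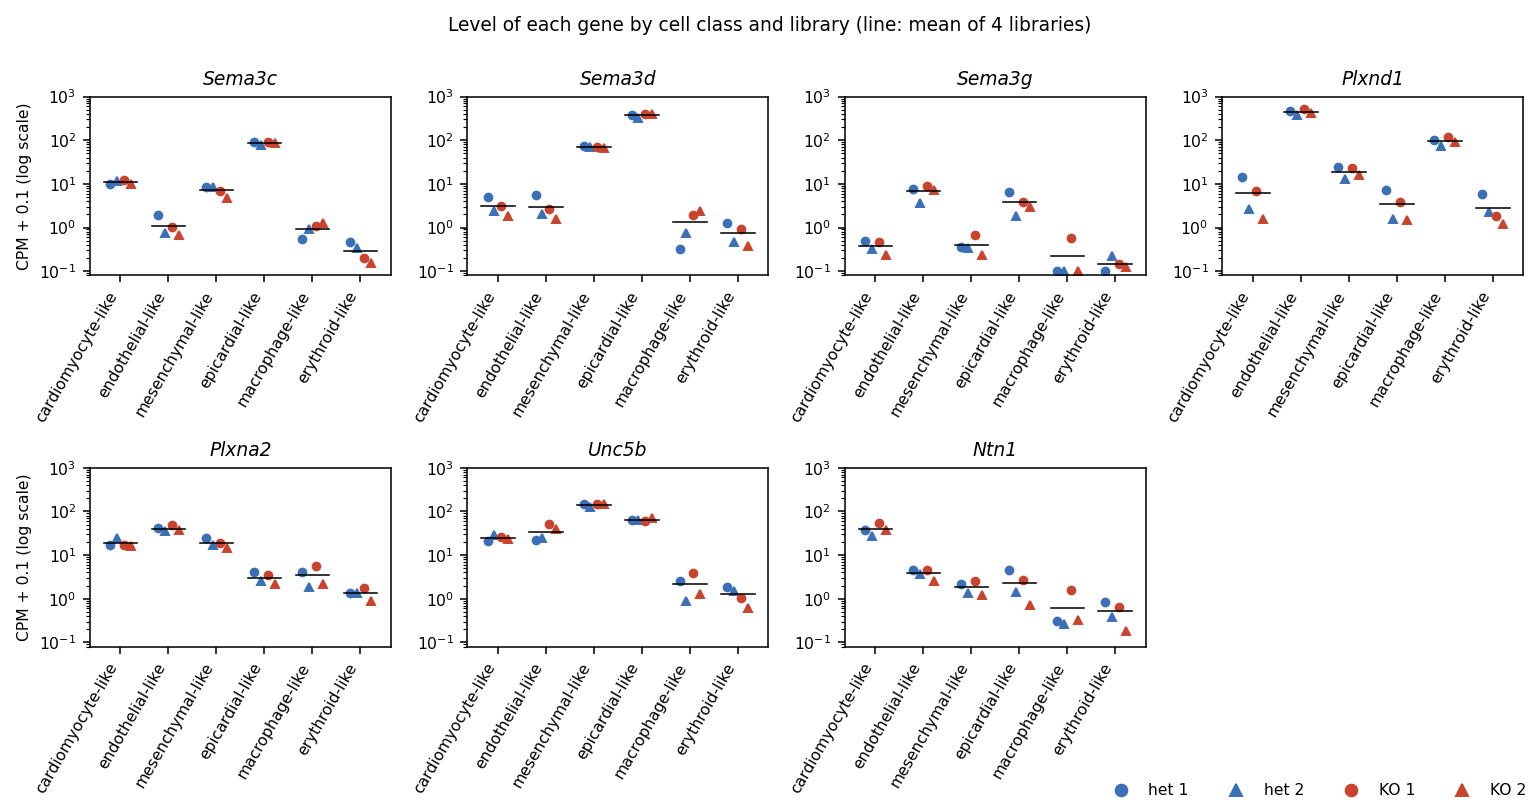
Level of each gene (CPM plus 0.1, log axis) in 6 cell classes, with 1 point per library (blue het, red KO, circles replicate 1, triangles replicate 2) and a line at the mean of 4 libraries. Epicardial-like cells lead for Sema3c and Sema3d, endothelial-like cells for Plxnd1 and Plxna2, mesenchymal-like cells for Unc5b and cardiomyocyte-like cells for Ntn1; Sema3g is highest in endothelial-like cells with a range that overlaps epicardial-like cells.

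Shares of cells with a UMI were taken after each cell was thinned to 3000 UMIs, globin included. Thinning left out 0 to 9 epicardial-, 62 to 98 mesenchymal-, 156 to 308 endothelial- and 598 to 1454 cardiomyocyte-like cells a library. The shares were set beside erythroid-like cells as a measure of free RNA. That measure may be too low for other classes, since erythroid markers made up 58.7% to 76.6% of UMIs in erythroid-like cells and left less room for other RNA. Sema3d was seen in 63.7% to 72.7% of epicardial-like and 14.05% to 16.96% of mesenchymal-like cells, against 0.0636% to 0.640% of erythroid-like cells. Plxnd1 was seen in 60.3% to 72.5% of endothelial-like and Unc5b in 30.3% to 37.2% of mesenchymal-like cells. In erythroid-like cells the shares were 0.445% to 1.28% for Plxnd1 and 0.236% to 0.426% for Unc5b.

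The less abundant members reached smaller shares. Sema3c was seen in 20.4% to 27.03% of epicardial-like, Plxna2 in 6.95% to 10.7% of endothelial-like and Ntn1 in 4.82% to 8.97% of cardiomyocyte-like cells. In erythroid-like cells Sema3c was seen in at most 0.107%, Plxna2 in at most 0.529% and Ntn1 in at most 0.236% of cells.

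Levels also varied among the clusters of a class (CPM of the cluster's own total). Among cardiomyocyte-like cells, Ntn1 was at 92.8 and 35.4 CPM in the het libraries and 101 and 64.1 CPM in the KO libraries of the cluster led by Ttn and Slc8a1, genes of the sarcomere and of sodium-calcium exchange. In the cluster led by the histone gene H3c3 it was at 1.90 to 6.12 CPM, and in the cluster led by the mitotic cyclin gene Ccnb1 at 1.72 to 13.9 CPM. The Ttn Slc8a1 cluster thus lay above both cycling clusters in all 4 libraries. Its cells were also deep in UMIs, and the part of depth in its level was not tested.

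Unc5b followed Ntn1 in part. It was at 30.2 to 41.8 CPM in the Ttn Slc8a1 cluster and at 1.32 to 5.21 CPM in the cycling clusters. Unlike Ntn1, it was highest in a small cluster led by Sln and Cacna2d2 with Shox2, at 77.8 CPM in het 1, 137 in het 2, 113 in KO 1 and 133 in KO 2 (241 cells in all). Sln and Shox2 are known as genes of the atria and of the sinus node, although the tissue is labelled ventricle. Sema3c was at 18.4, 27.6, 42.7 and 86.3 CPM there in the same order of libraries. It was above the Ttn Slc8a1 cluster (13.7 to 21.6 CPM) in 3 libraries and below it in het 1.

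Within mesenchymal-like cells, the cluster with most Sema3d was not among those with most Unc5b. In the cluster led by Spon2 and Tnxb, with the matrix gene Col14a1 among its leading genes, Sema3d was at 144 CPM in het 1, 125 in het 2, 137 in KO 1 and 109 in KO 2, and Unc5b at 77.1 to 99.1 CPM. In the cluster led by Car3 and Matn4, Sema3d was at 29.6 to 44.4 CPM and Unc5b at 142 to 193 CPM. These 2 clusters did not overlap for either gene. A cluster led by Car3 and Dpt had Unc5b at 153 to 199 CPM and Sema3d at 10.9 to 27.1 CPM. Clusters were made from the same cells, though without these genes, and are described with no test.

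**Figure D2:**
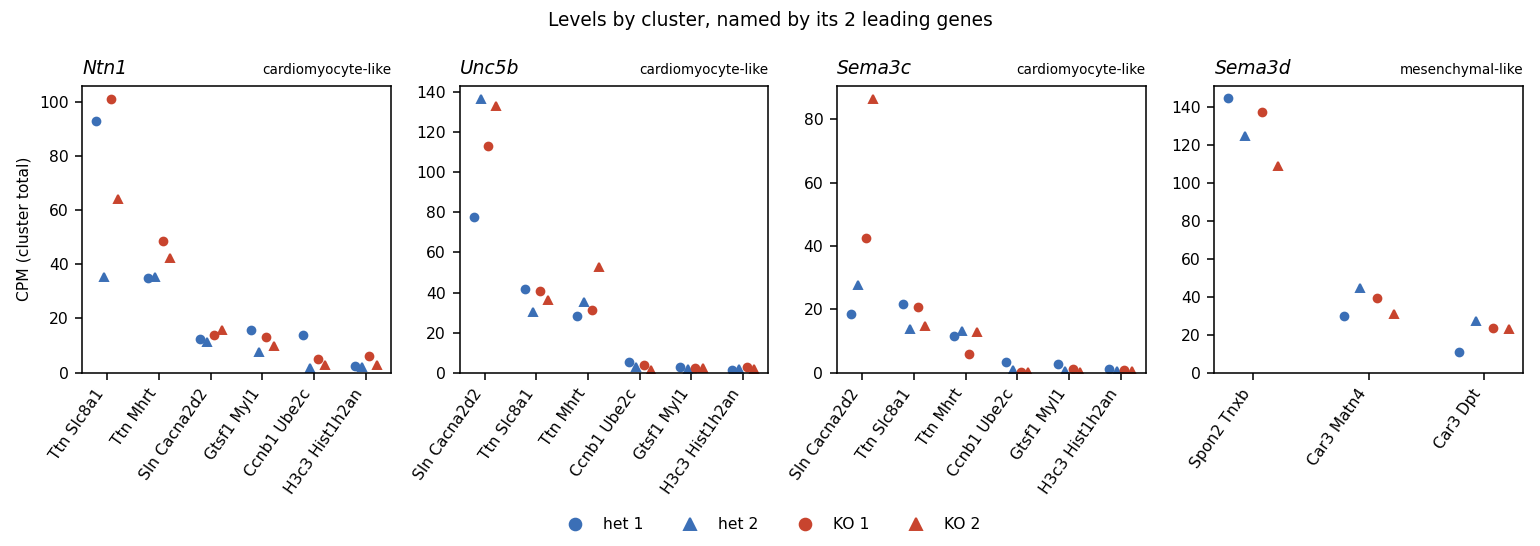
Level (CPM of the cluster total) of Ntn1, Unc5b and Sema3c in cardiomyocyte-like clusters and of Sema3d in mesenchymal-like clusters, each cluster named by its 2 leading genes, with 1 point per library. Cardiomyocyte-like clusters of 18 cells and of 1504 cells (1495 of them from het 1) are left out. Among the clusters plotted, Ntn1 is highest in the Ttn Slc8a1 cluster except in het 2, where the Ttn Mhrt cluster is level with it at 35.2 CPM, Unc5b and Sema3c peak in the Sln Cacna2d2 cluster except Sema3c in het 1, and Sema3d in the Spon2 Tnxb cluster.

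The genotype contrast was first read in endothelial-like cells, where Cre is driven. With edgeR's quasi-likelihood test, 0 of 15119 genes passed an adjusted p of 0.05 (percent called 0); 569 had an unadjusted p under 0.05, and DESeq2 called 37. Leaving out a library raised the count of genes called to 120 (without het 1), 114 (without het 2), 202 (without KO 1) and 19 (without KO 2), fits in which the lone sample of a group is assumed to vary like the others.

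Unc5b was the member that separated the groups in this class. Its level was 22.6 and 24.3 CPM in the het libraries and 51.2 and 39.3 in the KO libraries, a log2 difference (KO minus het) of 0.95 (SE 0.18). Both KO libraries lay above both het libraries, as did those of 14.6% of all genes tested (both lay below in 13.2%). With the unnamed cluster led by Wnt4 and Wnt9b added to the class the difference was 0.42, the lowest of 15 alternatives, and the highest was 1.12 without KO 2.

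The other members overlapped between genotypes in the endothelial-like class as a whole. Plxnd1 had a log2 difference of 0.18 (SE 0.20), Plxna2 of 0.16 (SE 0.19) and Ntn1 of -0.22 (SE 0.35). Sema3g was at 7.50 CPM in het 1, 3.45 in het 2, 8.97 in KO 1 and 7.14 in KO 2, a log2 difference of 0.61 (SE 0.38); it was 1.21 without het 1, 0.10 without het 2 and 1.19 with the Wnt4 and Wnt9b cluster added. Sema3c (-0.64, SE 0.66) and Sema3d (-0.80, SE 0.55) rested on 9 to 52 UMIs a library.

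The makeup of the class moved between libraries. Its endocardial-like part, the lining of the chambers, held 37.2% of the class in het 1 and 54.6% to 55.8% in the other libraries, while the vascular-like part, of coronary type, held 44.3% in het 1 and 11.3% to 15.1% in the others. A low-UMI cluster held the remainder. Cardiomyocyte markers were 0.586% of UMIs in the class in het 1, 0.222% in het 2, 0.286% in KO 1 and 0.109% in KO 2, with all 16 markers detected in each library. The part of either in the class-level values was not tested, and the parts were therefore read on their own.

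In endocardial-like cells Unc5b was at 7.48 CPM in het 1, 8.13 in het 2, 26.2 in KO 1 and 23.5 in KO 2. The groups did not overlap, beside 14.4% of genes with both KO libraries above and 14.8% below, and the log2 difference was 1.66 (SE 0.20), from 40 and 118 UMIs in het and 289 and 279 in KO. The difference ran from 1.58 to 1.74 over 9 alternatives. Sema3d, at 0.935, 0.758, 1.27 and 1.18 CPM from 5 to 14 UMIs a library, did not overlap either (log2 0.57, SE 0.51). In this part edgeR called 0.0489% of 14326 genes, 7 in number with no member among them, and 686 had an unadjusted p under 0.05. DESeq2 called 36. Leaving out a library gave 86 to 127 genes called.

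After thinning, Unc5b was seen in 1.28% of endocardial-like cells in het 1 (exact Clopper-Pearson 95% interval 0.349% to 3.24%) and in 2.78% in het 2 (1.63% to 4.42%). It was seen in 8.26% in KO 1 (6.20% to 10.8%) and in 8.15% in KO 2 (5.57% to 11.4%). The intervals of the KO libraries lay above those of the het libraries; they cover counting error only. The shares without thinning were 7.25% and 12.2% in het and 29.0% and 37.3% in KO. Erythroid-like cells were at 0.236% to 0.426%. Mesenchymal markers, the class with most Unc5b, were 0.121% of UMIs in het 1, 0.0980% in het 2, 0.147% in KO 1 and 0.125% in KO 2, and their part in the difference was not tested.

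In vascular-like cells Unc5b was at a higher level in both genotypes, 46.4 CPM in het 1, 64.7 in het 2, 119 in KO 1 and 111 in KO 2. The groups again did not overlap, beside 17.7% of genes with both KO libraries above and 15.9% below, and the log2 difference was 1.04 (SE 0.20). By edgeR 0 of 11754 genes were called in this part (percent called 0), 616 had an unadjusted p under 0.05, and DESeq2 called 4. The thinned shares were 10.7% and 14.5% in het and 22.8% and 24.0% in KO (20.9%, 56.8%, 58.0% and 74.0% without thinning). Cardiomyocyte markers were 1.10%, 0.376%, 0.326% and 0.0973% of UMIs in the same order of libraries, and their part was not tested.

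The unnamed cluster led by Wnt4 and Wnt9b, Wnt ligand genes, differed from the named parts in Unc5b and Sema3g. Its 1530 cells carried endothelial markers at 0.518% to 0.690% of UMIs, and 35.8% to 48.9% of them had EGFP UMIs and no dsRed UMI; it stayed unnamed because no endothelial marker was among its 10 leading genes. Cardiomyocyte markers were 1.06% of its UMIs in het 1 and 0.202% to 0.263% in the other libraries, and their part was not tested. Unc5b was at 63.5 CPM in het 1, 53.0 in het 2, 56.2 in KO 1 and 53.6 in KO 2, and the groups overlapped (log2 -0.08, SE 0.17). Sema3g was at 5.51 and 4.88 CPM in the het libraries and 24.5 and 26.4 CPM in the KO libraries, with no overlap and a log2 difference of 2.29 (SE 0.22), beside 14.6% of genes with both KO libraries above and 14.8% below. It rested on 32, 48, 135 and 101 UMIs. In this cluster 0 of 13046 genes were called by edgeR (percent called 0) and 474 had an unadjusted p under 0.05; DESeq2 was not run there, and leaving out a library gave from 0 to 202 calls.

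Sema3g also lay higher in the KO libraries in both named parts. In vascular-like cells it was at 15.7 CPM in het 1, 9.04 in het 2, 20.7 in KO 1 and 22.6 in KO 2. The log2 difference was 0.83 (SE 0.30), and 0.47 to 1.25 over 9 alternatives. Both KO libraries lay above both het libraries there for 17.7% of genes and below for 15.9%. In endocardial-like cells Sema3g was at 2.43, 1.17, 4.72 and 3.45 CPM in the same order. The log2 difference was 1.31 (SE 0.45), and 0.75 to 1.79 over 9 alternatives. Both KO libraries lay above there for 14.4% of genes and below for 14.8%. Thinned shares in the Wnt4 and Wnt9b cluster were 1.62% and 0.946% in het and 4.60% and 8.18% in KO (2.60%, 6.30%, 14.0% and 22.5% without thinning), against at most 0.0636% in erythroid-like cells; the intervals of het 1 (0.700% to 3.16%) and KO 1 (2.32% to 8.09%) overlapped.

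The 2 plexins differed little by genotype in endocardial-like cells and more in vascular-like cells, and Plxnd1 also in the Wnt4 and Wnt9b cluster. Plxnd1 had a log2 difference of 0.05 (SE 0.24) in endocardial-like cells, 0.41 (SE 0.20) in vascular-like cells and 0.54 (SE 0.18) in the Wnt4 and Wnt9b cluster, where it was at 169 and 151 CPM in het and 260 and 206 in KO. Plxna2 had a difference of -0.0024 (SE 0.22) in endocardial-like cells and 0.58 (SE 0.18) in vascular-like cells, at 44.8 and 52.6 CPM in het and 78.6 and 67.1 in KO. In the Wnt4 and Wnt9b cluster Plxna2 overlapped between genotypes at 22.2 to 29.9 CPM. Both KO libraries lay above both het libraries for 17.7% of genes in vascular-like cells and 14.6% in that cluster. They lay below for 15.9% and 14.8%.

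**Figure D3:**
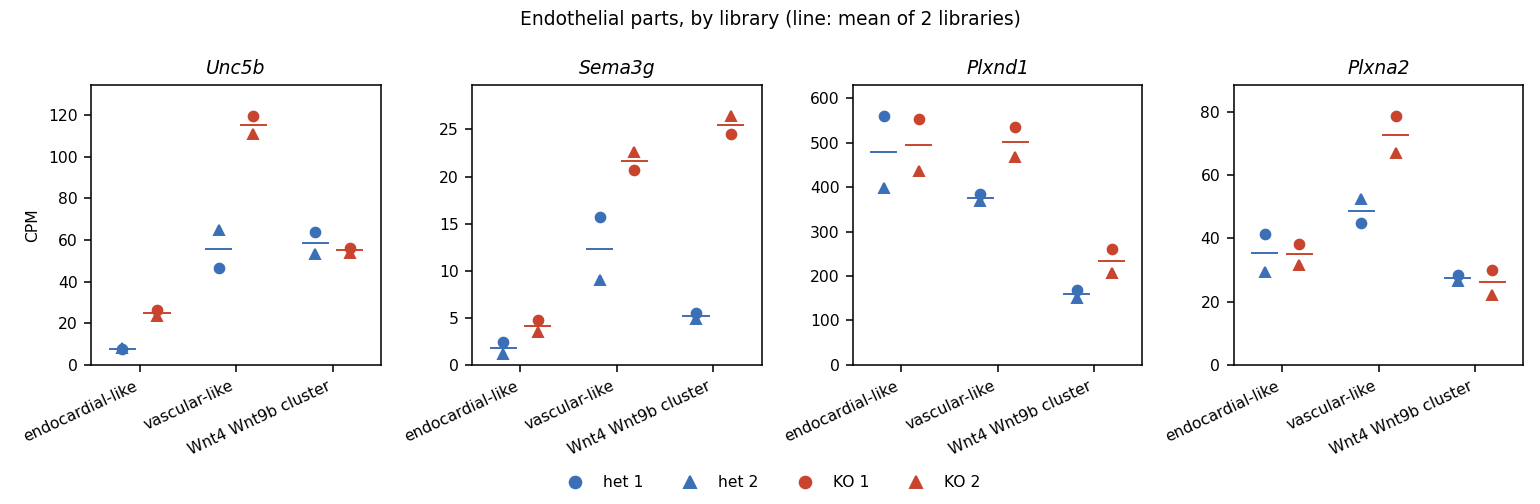
Level (CPM) of Unc5b, Sema3g, Plxnd1 and Plxna2 in endocardial-like cells, vascular-like cells and the unnamed cluster led by Wnt4 and Wnt9b, with 1 point per library and a line at the mean of 2 libraries. Unc5b is higher in both KO libraries in the endocardial-like and vascular-like parts and level in the Wnt4 and Wnt9b cluster, where Sema3g is at 24.5 and 26.4 CPM in KO against 5.51 and 4.88 in het.

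The difference between parts was itself estimated, with the library as a block, and is given as a description since the contrast chose the members. The genotype difference of Unc5b in endocardial-like cells exceeded that in the Wnt4 and Wnt9b cluster by 1.70 on the log2 scale (SE 0.19), and in vascular-like cells by 1.10 (SE 0.24). For Sema3g these differences were -0.96 (SE 0.44) and -1.43 (SE 0.29). For Plxna2 in vascular-like cells it was 0.63 (SE 0.20). Against cardiomyocyte-like cells, the endothelial difference of Unc5b was larger by 0.88 (SE 0.18) and that of Ntn1 smaller by 0.81 (estimate -0.81, SE 0.20); in that interaction 0 of 17522 genes were called by edgeR (percent called 0), 633 had an unadjusted p under 0.05, and DESeq2 called 9.

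No member passed the main edgeR test of genotype outside the endothelium, and none did within it. In cardiomyocyte-like cells edgeR called 0 of 16270 genes (percent called 0), 261 had an unadjusted p under 0.05, and DESeq2 called 1. Ntn1 had a log2 difference of 0.50 (SE 0.22, adjusted p = 1.0) and its groups overlapped, since het 1 (38.0 CPM) lay above KO 2 (37.4 CPM). That difference ran from 0.19 to 0.75 over 9 alternatives. The makeup of the class moved with the library: the H3c3 cluster, low in Ntn1, held 683 of 5091 and 841 of 2868 het cells and 1497 of 3942 and 938 of 2174 KO cells, and 2131 of the 2589 cells of the Ttn Mhrt cluster came from het 1. Its part in the Ntn1 values was not tested. Unc5b differed by 0.01 (SE 0.18) and Sema3c by 0.06 (SE 0.20). Plxnd1 was at 14.3 CPM in het 1 and 2.53 in het 2, and at 6.61 in KO 1 and 1.46 in KO 2 (log2 -1.04, SE 0.76, adjusted p = 1.0). Both groups overlapped, and the difference was 0.69 without het 1. Both KO libraries lay below both het libraries for 10.4% of genes and above for 9%, and no member did either. Endothelial markers in these cells were 0.0223%, 0.00572%, 0.00762% and 0.00346% of UMIs in het 1, het 2, KO 1 and KO 2, so the libraries stood in the same order for these markers and for Plxnd1; their part was not tested. Plxnd1 was called in 3 of 9 alternatives, among them without het 2 (log2 -1.81, adjusted p = 0.00137 by edgeR, one of 220 calls in that fit) and with no filter on low counts (-1.05, adjusted p = 0.0215).

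In mesenchymal-like cells, 0 of 16890 genes were called (percent called 0), 154 had an unadjusted p under 0.05, and DESeq2 called 0. Sema3c was at 8.48 CPM in het 1, 8.22 in het 2, 6.82 in KO 1 and 4.62 in KO 2. Both KO libraries lay below both het libraries, as did those of 9.33% of genes (above in 9.38%), and the difference did not pass (log2 -0.55, SE 0.24, adjusted p = 1.0). Unc5b differed by 0.14 (SE 0.15) and Sema3d by -0.06 (SE 0.13), each with an adjusted p of 1.0; Unc5b did not overlap, though its KO values (149 and 148 CPM) lay close to het 1 (147).

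In epicardial-like cells, 0 of 13836 genes were called (percent called 0), 230 had an unadjusted p under 0.05, and DESeq2 called 3, no member among them. The log2 differences were 0.20 (SE 0.20) for Sema3d, 0.10 (SE 0.18) for Sema3c and 0.04 (SE 0.18) for Unc5b, each with an adjusted p of 1.0. For Sema3d both KO libraries lay above both het libraries, as for 12.4% of genes (below in 11.3%), while Sema3c and Unc5b overlapped.

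In macrophage-like cells, 0 of 11900 genes were called (percent called 0), 221 had an unadjusted p under 0.05, and DESeq2 called 9. Plxnd1 differed by 0.28 (SE 0.21, adjusted p = 1.0). Sema3d differed by 2.10 (SE 0.71, adjusted p = 1.0) from 1 and 4 UMIs in het and 15 and 10 in KO, without overlap, beside 11.6% of genes with both KO libraries above and 11.4% with both below. Mesenchymal markers there were 0.00819% and 0.00790% of UMIs in het and 0.0268% and 0.0170% in KO, and epicardial markers 0.00115% and 0.00109% against 0.00250% and 0.00243%. Endothelial markers were 0.0175%, 0.0159%, 0.0391% and 0.0131% in het 1, het 2, KO 1 and KO 2. The class held a cluster led by F13a1 and Lyve1 of 37 cells, all from KO 1. Its endothelial markers lay a mean log2 of 2.87 above the median cluster. The part of these cell types in the Plxnd1 and Sema3d values was not tested.

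Erythroid-like cells, which are not known to use these genes, served as a background. Of 12610 genes 0 were called (percent called 0), 1739 had an unadjusted p under 0.05, and DESeq2 called 295. All 7 members there were at most at 5.72 CPM. Plxnd1 (log2 -1.43, SE 0.51, adjusted p = 0.327) and Unc5b (-1.06, SE 0.49, adjusted p = 0.376) lay lower in both KO libraries, beside 26.7% of genes (higher in 27.2%). With library totals in place of TMM scaling the differences were -0.47 and -0.12. In the larger erythroid-like cluster, per its own total, Plxnd1 was at 3.89 and 1.77 CPM in het and 1.86 and 1.21 in KO, and Unc5b at 1.23 and 0.846 against 1.31 and 0.905, so the groups overlapped for both genes. The cluster led by Hemgn and Car1 held 25 of 992 and 142 of 1599 het cells and 777 of 2425 and 312 of 880 KO cells, and its part was not tested. Without het 2, Plxnd1 was called at an adjusted p of 0.00126, one of 2491 calls. Endothelial markers in these cells were 0.00738% and 0.00474% of UMIs in the het libraries and 0.00574% and 0.00425% in the KO libraries, and their part was not tested.

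**Figure D4:**
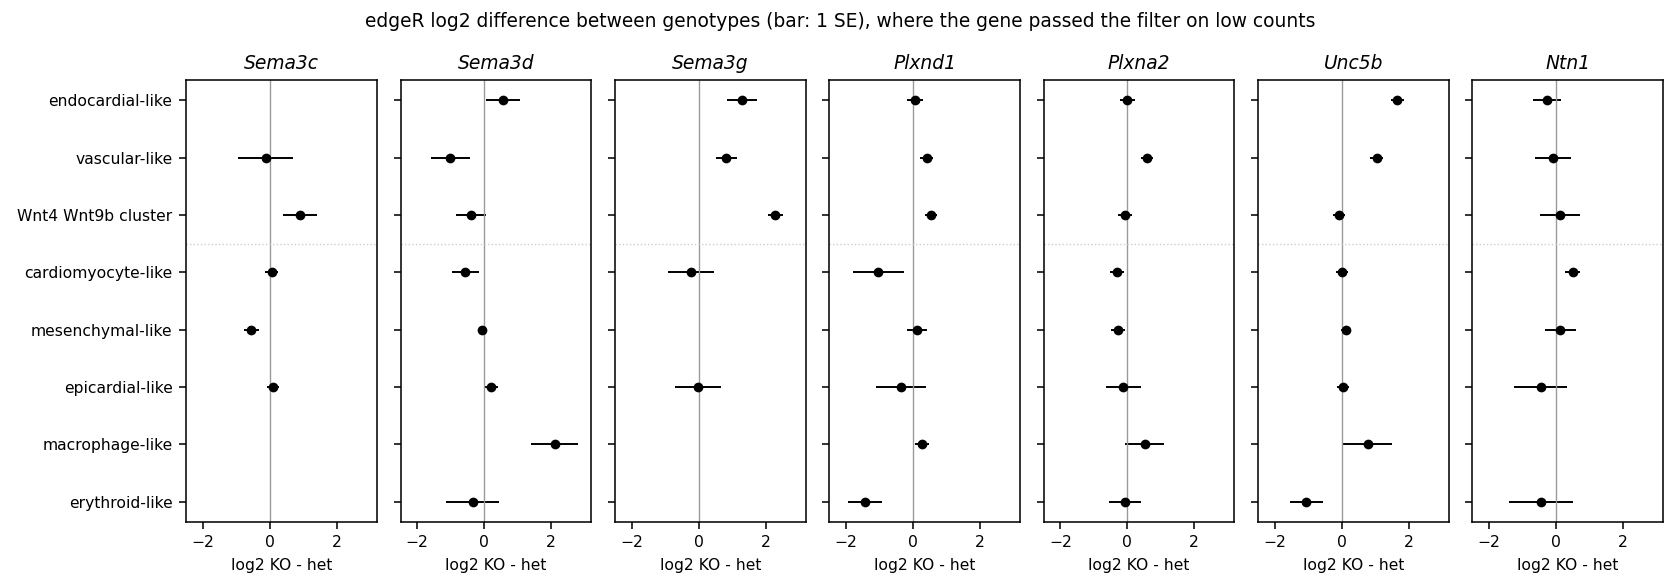
Log2 difference between genotypes (KO minus het, edgeR, bar 1 SE) of each gene in the 2 endothelial parts, the Wnt4 and Wnt9b cluster and 5 other classes, where the gene passed the filter on low counts. Unc5b lies at 1.66 and 1.04 in the endocardial-like and vascular-like parts and near 0 in the Wnt4 and Wnt9b cluster, cardiomyocyte-, mesenchymal- and epicardial-like cells.

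Of the 69 other genes of these pathways, listed with earlier results known, 53 were tested in endothelial-like cells. None passed the test (percent called 0), 34 had a difference above 0, beside 50.5% of all genes, and their median log2 difference was 0.06, beside 0.00 over all genes. In endocardial-like cells 24 of 52 lay above 0, beside 50.2% of all genes, with a median of -0.02. In the endothelial-like class as a whole, all 5 of the 11 other netrins and netrin receptors that were tested lay above 0 (median 0.32). So did 6 of 8 other plexins and neuropilins (median 0.13), 9 of 12 other semaphorins (median 0.08) and 9 of 21 intracellular partners (median -0.07). In endocardial-like cells the counts in the same order of lists were 3 of 4 (median 0.23), 4 of 8 (0.03), 5 of 12 (-0.03) and 7 of 21 (-0.05).

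The co-receptors and partners of the members were also measured. Nrp1 and Nrp2 are neuropilins, which bind class 3 semaphorins. In endothelial-like cells Nrp1 was at 393 CPM in het 1, 438 in het 2, 427 in KO 1 and 490 in KO 2, overlapping between genotypes. Nrp2 averaged 166 CPM in het and 258 in KO in vascular-like cells, and 108 and 98.3 in endocardial-like cells. Plxnc1, a receptor of Sema7a, averaged 195 CPM over the 4 libraries in endocardial-like cells and 16.0 in vascular-like cells. Plxna4 was highest in epicardial-like cells, at 387 CPM. Plxnb2 averaged 167 CPM in macrophage-like cells and, close to that, 157 CPM in epicardial-like cells.

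Among ligands other than the members, Sema6d, a transmembrane semaphorin, averaged 159 CPM in endothelial-like cells. Sema3a averaged 104 CPM in het and 63.0 in KO in endocardial-like cells. In the same order it averaged 14.3 and 14.5 in vascular-like cells and 60.5 and 90.4 in the Wnt4 and Wnt9b cluster. Over the endothelial-like class, without that cluster, its log2 difference was -0.52 (SE 0.20, adjusted p = 1.0 by edgeR). Sema3e, the ligand of Plxnd1, was at 51.8 CPM in epicardial-like cells and at 0.528 CPM in endothelial-like cells. Ntn4 was at 101 CPM in the Wnt4 and Wnt9b cluster and at most 9.97 CPM in the named classes. Sema5a (log2 1.23, SE 0.38) and Sema7a (0.58, SE 0.25) had the lowest unadjusted p-values with Sema3a in endothelial-like cells and did not pass.

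Other binding partners of Unc5b differed in their leading class. Flrt2, a membrane protein that binds UNC5 receptors, was at 311 CPM in epicardial-like and 99.5 CPM in mesenchymal-like cells. Robo4 was at 31.6 CPM in endothelial-like cells and at most 1.19 CPM in the other named classes. The related receptor Unc5c was at 115 CPM in mesenchymal-like cells and 76.7 in the Wnt4 and Wnt9b cluster, against 6.96 in endothelial-like cells. Neo1 was at 165 CPM in epicardial-like cells. Among intracellular partners, Rap1a, a small GTPase on which plexins act, averaged 233 CPM in endothelial-like cells with a log2 difference of -0.10 (SE 0.16), and Mical2, of the MICAL family downstream of plexins, 165 CPM with a difference of 0.36 (SE 0.14, adjusted p = 1.0 by edgeR).

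The reporter gave a comparison within 1 cell class, by a split that used no member gene. The members were chosen with earlier levels by cell type known, so its p-values may not be independent of that choice. Mesenchymal-like cells with EGFP UMIs and no dsRed UMI (50, 122, 84 and 37 cells in het 1, het 2, KO 1 and KO 2) were set against those with dsRed UMIs and no EGFP UMI (297, 622, 455 and 427 cells), with the library as a block. The other cells had both (50.6% to 59.1% of mesenchymal-like cells) or neither (2.72% to 8.10%). Median UMIs per cell were 4570.5, 12853, 11428.5 and 12342 in EGFP cells of het 1, het 2, KO 1 and KO 2. In dsRed cells of the same libraries they were 7506, 14834.5, 11887 and 23024. The part of depth in the label differences was not tested. EGFP is known to mark the descendants of cells in which Cre acted, such as cushion mesenchyme that arises from endocardium. Free RNA limits the label, since 12.04% to 16.03% of erythroid-like cells also had EGFP UMIs alone and 30.2% to 32.3% dsRed UMIs alone. EGFP UMIs alone were seen in 55.1% to 61.0% of endothelial-like and 3.43% to 6.26% of mesenchymal-like cells, and dsRed UMIs alone in 30.1% to 39.5% of mesenchymal-like cells. By edgeR 5.43% of 12160 genes were called, 660 in number, with 292 higher and 368 lower in EGFP cells, and 182 without het 2.

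Sema3c was higher in the EGFP-labelled cells. EGFP cells of het 1, het 2, KO 1 and KO 2 had 10.8, 21.2, 22.5 and 4.205 CPM, against 8.42, 6.47, 5.85 and 3.49 CPM in dsRed cells of the same libraries. EGFP cells lay above dsRed cells in 4 of 4 libraries (log2 1.44, SE 0.30, adjusted p = 0.00587 by edgeR), closely so in het 1 and KO 2, from 5, 35, 23 and 2 UMIs in EGFP cells. Without het 2 the call was lost (log2 1.22, adjusted p = 0.214).

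Sema3d was lower in the EGFP-labelled cells. It was at 38.7, 44.3, 49.9 and 50.5 CPM in EGFP cells and at 87.0, 68.1, 72.2 and 61.6 CPM in dsRed cells of het 1, het 2, KO 1 and KO 2. EGFP cells lay below dsRed cells in 4 of 4 libraries, and the label difference was -0.62 on the log2 scale (SE 0.14, adjusted p = 0.00884 by edgeR). Without het 2 the call was lost (adjusted p = 0.125).

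The Spon2 Col14a1 cluster moved with the label. It held 20.0%, 4.10%, 13.1% and 5.41% of EGFP cells and 31.3%, 25.1%, 29.2% and 30.4% of dsRed cells in het 1, het 2, KO 1 and KO 2. With that cluster left out, an alternative added after the data were seen, Sema3d differed by 0.06 (SE 0.20, adjusted p = 0.958) and Sema3c by 1.20 (SE 0.31, adjusted p = 0.0844), and 91 genes were called in all. Neither passed.

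Of the other members, Unc5b was at 185, 139, 214 and 177 CPM in EGFP cells and 157, 123, 157 and 152 in dsRed cells, higher in 4 of 4 libraries, and did not pass (log2 0.28, SE 0.09, adjusted p = 0.0721 by edgeR; 0.0330 with library totals alone). Plxna2 (0.51, SE 0.24, adjusted p = 0.287) and Plxnd1 (-0.01, SE 0.21, adjusted p = 0.994) did not pass. Sema3g and Ntn1 had at most 1 UMI in EGFP cells of any library and were not tested.

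**Figure D5:**
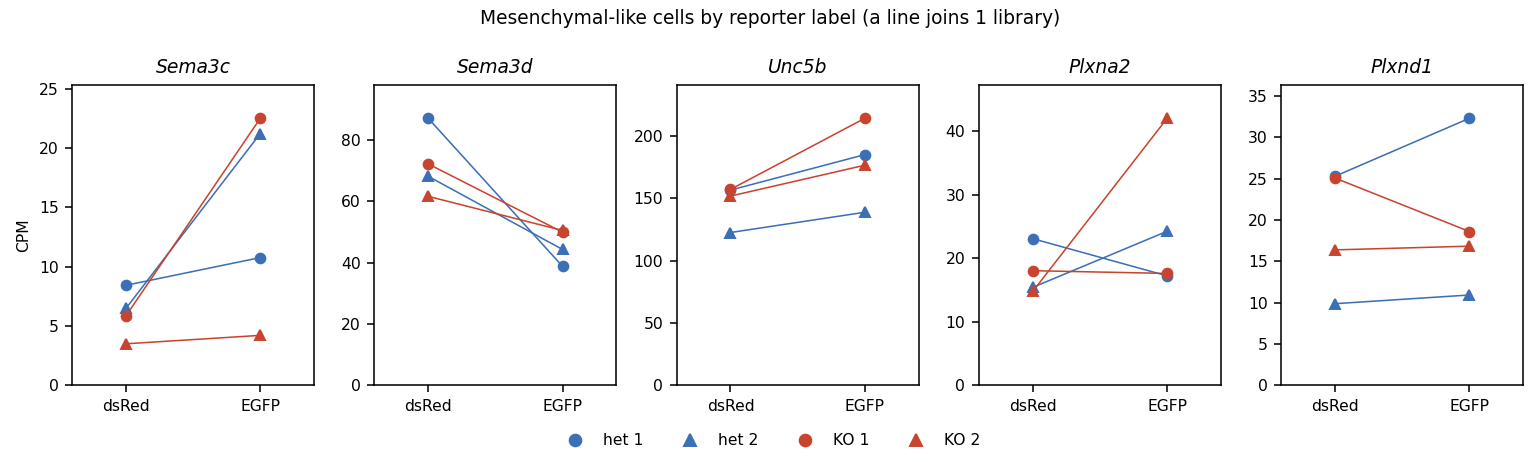
Level (CPM) of the 5 tested genes in mesenchymal-like cells with dsRed UMIs alone and with EGFP UMIs alone, with a line joining the 2 values of 1 library. Sema3c is higher and Sema3d lower in EGFP cells in 4 of 4 libraries; Unc5b is higher in 4 of 4 without passing the test.

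Among 47 tested genes of the other lists, 4 were higher and 1 lower in EGFP cells. Unc5c, the relative of Unc5b, was at 218 ± 8.01 CPM in EGFP and 109 ± 13.1 CPM in dsRed cells (SD, n = 4), a log2 difference of 0.99 (SE 0.09, adjusted p = 2.14e-06 by edgeR), and was still called without the Spon2 Col14a1 cluster (0.54, adjusted p = 0.00177). Ntn4 (1.34, adjusted p = 0.00116), Dpysl4 (0.84, 0.00775) and Sema6a (0.72, 0.0151) were also higher by edgeR, and Slit2, a ligand of ROBO receptors, was lower by 0.83 (-0.83, adjusted p = 8.22e-05). Without that cluster Slit2 (0.08, adjusted p = 0.913), Dpysl4 (adjusted p = 0.458) and Ntn4 (adjusted p = 0.0844) did not pass and Sema6a did (0.0279). Without het 2, Dpysl4 (adjusted p = 0.135) and Sema6a (0.0993) did not pass, and Sema6a did not without het 1 (0.0752).

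The genes whose profiles over 8 classes and 4 libraries were most like each member (Pearson's r of log2(CPM + 1) over 32 points, among 8895 genes) are given as a description, since the points share libraries and depth. Sema3c was closest to Gabra4 (r = 0.98), Pdpn (0.97) and Cdh3 (0.96), and Sema3d to Col6a6, Ecrg4 and Gxylt2 (0.98 each). Plxnd1 was closest to Cav2 (0.95), Gngt2 (0.95) and Gbp9 (0.94), and Sema3g to Pcdh17 (0.93), Npr3 (0.93) and Efna1 (0.92). Ntn1 went with the calcium-release channel gene Ryr2 (0.96), Ppp1r3c (0.95) and Ndrg4 (0.92), and Unc5b with Mir100hg (0.98), Fzd1 (0.97) and Myh10 (0.97). Plxna2 was closest to Sobp (0.93), Ptprm (0.91) and Tmem44 (0.89). Among the members themselves, Sema3c and Sema3d were the most alike pair (r = 0.85), followed by Sema3d and Unc5b (0.75).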

How the data were processed

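The deposited files hold raw UMI counts per gene and cell barcode, made by the authors with Cell Ranger 6.0.1 per the file headers; the submitters' processing notes name mm10, Cell Ranger and Seurat. The labels conflict on the kit (3′ v2 or Next GEM).

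Cells with at least 500 genes and under 20% mitochondrial UMIs were kept. Scrublet (scanpy 1.11.5, rate 0.1) found its own threshold in het 2 alone, so a score of 0.35, set after the scores were seen, removed 69 to 359 doublets a library. Clusters (Leiden, igraph 0.11.9, resolution 1, 2000 variable genes without the members and pathway lists, 30 components, 20 neighbours) numbered 39, of which 23 were named from fixed markers (mean log2 fold at least 1, 3 markers detected, cardiomyocyte markers under 1% of UMIs outside cardiomyocytes and at least 5% in them) by limits set after the clusters were seen; differences from the study may come from these names. UMIs were summed per library and class (at least 50 cells) and tested over all genes that passed filterByExpr (minimum 10) with edgeR 4.0.16 (quasi-likelihood, TMM, Benjamini-Hochberg, threshold 0.05), and with DESeq2 1.42.0 as an alternative. CPM use TMM-scaled totals of all UMIs of the class, globin included; symbols on more than 1 row numbered 107 and none is a member.

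The members and lists were chosen with earlier results of these data known. Named genes were the members, list genes past the threshold, and in each list up to 3 of highest level and 3 of lowest p in endothelial-like cells; others were chosen after their values were seen. Tested on simulated data, edgeR recovered 100% of changes of log2 size 2 and 90% of size 1 in the endothelial-like comparison (15062 genes). There were 12 false calls beside 200 changed genes. Of changes of size 1 it recovered 43% in the interaction and 84% for the reporter. The simulation set a fixed spread between libraries, not taken from these data, and changed only well-counted genes. It therefore does not cover members with few UMIs.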

Additional observations from a re-analysis of the deposited data

Results flagged for a closer look

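Unc5b moved in opposite directions between genotypes in different classes, and the difference between these classes was not tested. Both KO libraries lay above both het libraries in endothelial-like cells (log2 difference 0.95, KO minus het), as did those of 14.6% of genes, and in mesenchymal-like cells (0.14), as did those of 9.38%. Both lay below in erythroid-like cells (-1.06), as did those of 26.7%. The erythroid-like values rest on 19 and 35 UMIs in the het libraries and 65 and 19 in the KO libraries, at 0.512 to 1.75 CPM. Their order depends on the scaling: with library totals in place of TMM the difference was -0.12, and in the larger erythroid-like cluster, per its own total, the groups overlapped (1.23 and 0.846 CPM in het, 1.31 and 0.905 in KO).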

How the results depend on the processing

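Counts of genes called depended on the tool, and the cause was not tested. DESeq2 called 37 genes between genotypes in endothelial-like cells, 1 in cardiomyocyte-, 3 in epicardial-, 295 in erythroid-, 9 in macrophage-, 36 in endocardial- and 4 in vascular-like cells, and 9 in the interaction. Library totals in place of TMM gave 2 in endothelial-, 4493 in erythroid- and 4 in endocardial-like cells. With no filter on low counts there were 89 in endothelial-, 162 in cardiomyocyte-, 34 in mesenchymal-, 19 in epicardial-, 442 in erythroid-, 158 in macrophage-, 184 in endocardial- and 230 in vascular-like cells, and in EGFP cells alone 9 in endothelial-like cells. Leaving out a library gave 19 to 202 in endothelial-, 0 to 220 in cardiomyocyte-, 1 to 91 in mesenchymal-, 14 to 63 in epicardial-, 6 to 2491 in erythroid-, 1 to 119 in macrophage-, 86 to 127 in endocardial- and 1 to 132 in vascular-like cells, 0 to 202 in the Wnt4 and Wnt9b cluster, 0 to 2 in the interaction, and 182 to 823 for EGFP against dsRed. Without the Spon2 Col14a1 cluster, chosen after seeing the data, 91 genes were called for the reporter and Sema3d differed by 0.064 on the log2 scale, the direction opposite to that with it.

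With the replicate number as a block, the calls were 411 in endothelial-, 192 in cardiomyocyte-, 78 in mesenchymal-, 94 in epicardial-, 2643 in erythroid-, 795 in endocardial- and 138 in vascular-like cells and 91 in the Wnt4 and Wnt9b cluster. The numbers are not stated to pair the libraries; the difference between replicates in het and in KO had r = 0.71 over 6673 genes of endothelial-like cells, from 2 pairs. The block also brought Plxnd1 past the threshold in cardiomyocyte-like cells (log2 -0.99, adjusted p = 0.00513 by edgeR), and in erythroid-like cells Plxnd1 (-1.39, 0.00412) and Unc5b (-1.14, 0.0311). Some alternatives also called Unc5b and Sema3g within the endothelium. Those calls are not given as support, since that contrast chose the members. Unc5b in endocardial-like cells kept its direction in 9 of 9 alternatives.

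Shares of cells with a UMI depended on depth. Unthinned and at 1500 UMIs, mean shares were 70.6% and 11.7% for Sema3c and 98.4% and 45.6% for Sema3d (epicardial-like), 6.66% and 0.645% for Sema3g, 72.8% and 42.4% for Plxnd1 and 30.6% and 4.94% for Plxna2 (endothelial-like), 76.0% and 19.7% for Unc5b (mesenchymal-like), and 14.6% and 3.37% for Ntn1 (cardiomyocyte-like).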
